A study of Mus musculus with 12 samples.

Results

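The nuclear oxidative phosphorylation subunits are the proteins of the respiratory chain and of the ATP synthase whose genes lie in the nucleus. They were chosen by gene symbol in the platform annotation, as Nduf followed by a, b, c, s or v and a number, Sdha to Sdhd, Uqcr, Cox4 to Cox8, and Atp5. Cox8b, Cox7a1 and the Ndufaf assembly factors were left out. The symbols matched 79 genes with a probe set of their own, among 18194 such genes on the array. Of these, 77 reached a scaled intensity of 100 on at least 2 of 12 arrays and were tested, among 12627 genes in all. They comprise 34 genes of complex I, 4 of complex II, 8 of complex III, 14 of complex IV and 17 of complex V.

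The arrays measured white adipose tissue of mice fed CLA, the usual abbreviation of conjugated linoleic acid, and of control mice fed LA, linoleic acid. The 6 groups were CLA and LA at 4, 12 and 24 h, with 2 arrays each. Each array held RNA pooled from 5 mice and the labels call the pools biological replicates, so n is 2 pools in every group and the spread between single mice was not measured. The labels name the fat pad only as RP and do not say from when the hours ran. Strain, sex and age are not given in the sources used here.

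On each array, 44.7% to 49.8% of the probe sets reached a scaled intensity of 100. The CLA pools of 24 h lay at 65.42 and 73.57 on the first principal component (32.4% of the variance), and the other 10 arrays between -35.19 and 19.31. Replicate 1 of the CLA pools of 4 h lay at 53.38 on the second component (13% of the variance), where the other arrays reached at most 15.52. The ratio of 3' to 5' signal of Actb, a sign of RNA integrity, was 3.80 to 6.41 on the 12 h arrays. It was 3.25 and 4.13 in the CLA pools and 2.65 and 4.07 in the LA pools of 24 h. All 8 adipocyte markers on the array were present in every group, with sums of 163300 to 348400.

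The respiratory chain passes electrons from NADH and succinate through complexes I to IV to oxygen and pumps protons across the inner mitochondrial membrane. Complex V, the ATP synthase, uses the proton gradient to make ATP. Some subunits are made from mitochondrial DNA, and the others, described here, are imported from the cytosol and joined to them by assembly factors. White adipocytes use their mitochondria for ATP, for the citrate that fatty acid synthesis consumes and for burning fatty acids. Brown adipocytes hold many more mitochondria.

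At 24 h the subunits were lower in the CLA pools as a group, in all 5 complexes. In limma's fit of all genes, 43 of 77 passed an adjusted p of 0.05 as lower with CLA and 0 as higher. Among all 12627 genes, 11% passed as lower and 10.7% as higher. The median log2 change (CLA over LA) was -0.58 over the 77 members and 0.02 over all genes. Both CLA pools lay below both LA pools for 69 members (31.7% of all genes), above them for 3 (33% of all genes), and overlapped them for 5. The members' scaled intensity summed to 754810 and 764540 with CLA, against 1080000 and 1194100 with LA. The sums of the 8 arrays of 4 and 12 h lay between 980900 and 1127800, in a range that the CLA pools of 24 h did not reach.

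Most probe sets of the subunits were among the brightest of the array, and bright ones were called lower more often. Of the 1179 genes with a mean log2 level of at least 12, 24.2% passed as lower and 10.2% as higher with CLA at 24 h. Of the 69 members in that range, 43 passed as lower, or 62.3%, so that 0 of the 8 dimmer members passed. Uqcrb, the brightest, reached up to 78.5% of the highest value of its array, and saturation was not tested. In bulk tissue, fewer cells rich in mitochondria and less RNA per cell cannot be told apart.

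The count at 24 h rested on each of its 4 arrays. Without replicate 1 of the CLA pools 14 members passed, and without replicate 2 of the CLA pools 9. Without replicate 1 of the LA pools 25 passed, and without replicate 2 of the LA pools 12. Atp5g3, Atp5mpl, Atp5o, Ndufa6, Ndufb3, Ndufs1, Ndufs4 and Uqcrfs1 passed with any of the 12 arrays left out. With the 4 arrays of 24 h alone 15 passed. With 1 factor for all arrays 9 passed, with the median of all genes at 0.23, and the members' median minus that of all genes was -0.58, against -0.59 with each array scaled.

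**Figure D1:**
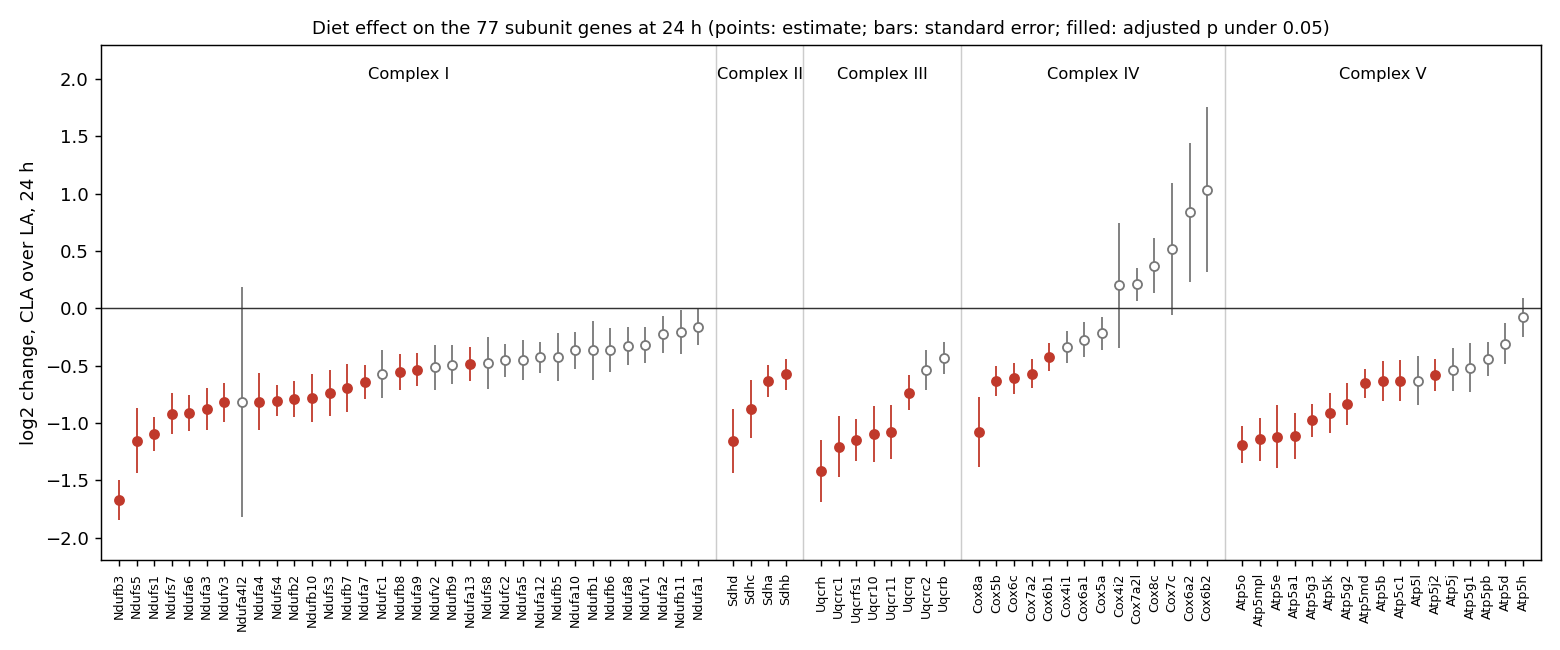
Diet effect at 24 h on the 77 subunits, by complex. The vertical axis is the log2 change of CLA over LA, points are the estimates, bars their standard errors, and filled points passed an adjusted p of 0.05 in limma's fit. The 43 filled points all lie below 0, and the points above 0 are 6 members of complex IV.

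At 4 and 12 h no subunit passed the test. At 4 h limma passed 0 members in either direction (0 of all genes passed as lower, 0.0554% as higher), and 0 had an unadjusted p under 0.05. At 12 h it passed 0 members (2.37% of all genes as lower, 2.1% as higher), and again 0 had an unadjusted p under 0.05. The medians over the 77 members were -0.01 at 4 h and -0.02 at 12 h. At 4 h, 15 members had both CLA pools below both LA pools (14.6% of all genes) and 9 above (15.9%). At 12 h, 25 had them below (28.5%) and 11 above (24.2%). Complex I held 17 of those 25 and 5 of those 11 among its 34 subunits, with a median log2 change of -0.14. In the authors' deposited table of 12 h, 4 members passed as lower, Ndufb3, Ndufb6, Ndufb7 and Sdhd, and 3 as higher, Atp5b, Cox7a2l and Sdha, where 7.37% of all genes passed as lower and 6.98% as higher. In the authors' deposited table of 4 h, 0 members passed, where 0.459% of all genes passed as lower and 0.364% as higher. Skeletal muscle markers summed to 6865 and 4396 with CLA, against 1764 and 1805 with LA at 12 h. At 4 h they summed to 1913 and 5510 with CLA, against 1484 and 1522 with LA. Their part in the values of 4 and 12 h was not tested.

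The per-array medians of each complex showed where the arrays of 24 h stood, relative to the mean of the 6 LA arrays. Complex III was lowest, with a median log2 level of -0.98 and -0.95 in the CLA pools of 24 h, against 0.03 and 0.20 in the LA pools. Complex II stood at -0.65 and -0.79 with CLA, against 0.04 and -0.07 with LA. Complex V stood at -0.56 and -0.64 with CLA, against -0.01 and 0.15 with LA. In each of the 5 complexes both CLA pools of 24 h lay below every other array. At 12 h complex III was lower than at 4 h with either diet, at -0.16 and -0.36 in the CLA pools and -0.28 and -0.50 in the LA pools. The 3' to 5' ratio of Actb ran to 6.41 on the 12 h arrays and to 4.13 on the others, and the part of RNA integrity in this was not tested.

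**Figure D2:**
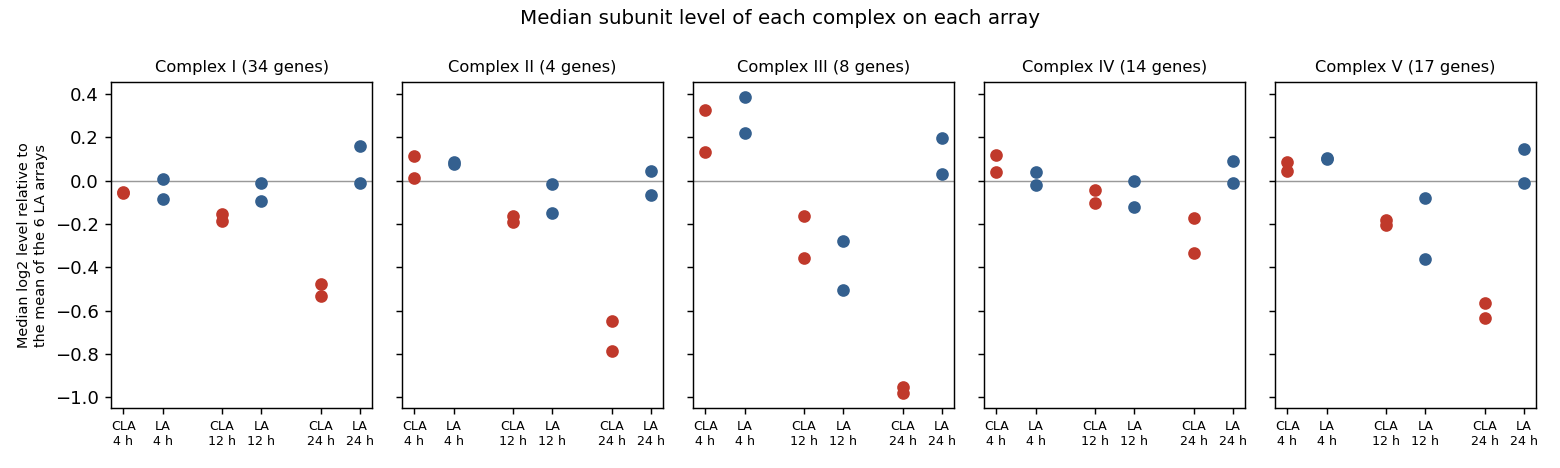
Median level of the subunits of each complex on each of the 12 arrays. The vertical axis is the median over the genes of the log2 level minus that gene's mean over the 6 LA arrays, points are single pools (red, CLA; blue, LA), and points of 1 group may overlap. The CLA pools of 24 h are the lowest points in every panel, near -1 for complex III and at -0.33 and -0.17 for complex IV.

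The promoters of members that fell at 24 h are shown as 1 gene per complex, chosen after their values were seen as the member with the most of 4 known mitochondrial promoter motifs. The windows, from RefSeq on GRCm38.p6, run from 250 bases before to 50 bases after the gene's start, 5′ to 3′ on the gene's strand. Capitals mark the motif matches, and matches on either strand were counted.
Ndufs4 (complex I, chr13:114388045-114388344, minus strand): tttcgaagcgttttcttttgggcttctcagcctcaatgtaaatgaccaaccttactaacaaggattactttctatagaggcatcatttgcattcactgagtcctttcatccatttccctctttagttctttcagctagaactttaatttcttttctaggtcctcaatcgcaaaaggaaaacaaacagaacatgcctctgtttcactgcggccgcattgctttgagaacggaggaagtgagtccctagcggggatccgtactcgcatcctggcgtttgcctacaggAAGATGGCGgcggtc
Sdhd (complex II, chr9:50603800-50604099, minus strand): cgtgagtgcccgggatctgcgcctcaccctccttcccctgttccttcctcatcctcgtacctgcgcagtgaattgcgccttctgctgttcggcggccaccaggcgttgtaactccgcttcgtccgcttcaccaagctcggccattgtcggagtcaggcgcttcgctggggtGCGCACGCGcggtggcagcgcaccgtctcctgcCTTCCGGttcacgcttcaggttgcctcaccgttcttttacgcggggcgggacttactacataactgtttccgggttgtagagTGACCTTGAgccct
Uqcr11 (complex III, chr10:80406772-80407071, minus strand): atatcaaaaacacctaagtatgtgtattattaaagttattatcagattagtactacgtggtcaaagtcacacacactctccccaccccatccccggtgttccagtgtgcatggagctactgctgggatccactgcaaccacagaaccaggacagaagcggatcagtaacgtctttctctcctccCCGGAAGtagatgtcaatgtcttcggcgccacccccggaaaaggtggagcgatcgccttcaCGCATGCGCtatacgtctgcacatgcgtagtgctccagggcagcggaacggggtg
Cox8a (complex IV, chr19:7217567-7217866, minus strand): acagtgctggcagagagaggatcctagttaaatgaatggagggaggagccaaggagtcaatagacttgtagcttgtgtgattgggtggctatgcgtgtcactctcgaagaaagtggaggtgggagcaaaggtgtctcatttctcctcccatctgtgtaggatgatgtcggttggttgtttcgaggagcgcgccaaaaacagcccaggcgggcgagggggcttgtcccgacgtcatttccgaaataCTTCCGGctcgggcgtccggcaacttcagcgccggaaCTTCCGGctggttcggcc
Atp5g3 (complex V, chr2:73911277-73911576, minus strand): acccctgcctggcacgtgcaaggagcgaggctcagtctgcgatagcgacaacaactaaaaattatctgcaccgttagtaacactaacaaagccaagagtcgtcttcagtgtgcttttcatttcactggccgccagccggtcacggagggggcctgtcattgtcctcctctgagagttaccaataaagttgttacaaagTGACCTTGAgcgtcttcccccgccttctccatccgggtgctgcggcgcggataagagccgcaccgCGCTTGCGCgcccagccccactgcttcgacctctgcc
Ndufs4 holds a YY1 match just after the start, Sdhd 1 match each for NRF1, an ETS factor and ERRA, and Uqcr11 1 match each for NRF1 and an ETS factor. Cox8a holds 2 ETS matches, and Atp5g3 a match for NRF1 and for ERRA. The matches do not overlap in these windows.

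Of the 77 members, 62 were found in the RefSeq table, with 67 windows. NRF1, a transcription factor of respiratory genes, is known to bind CGCNTGCGC, which 26.9% of member windows, 12.3% of the windows of tested genes and 6.25% of all 32851 windows held. The ETS motif CCGGAAG, bound by GABPA, was in 25.4% of member windows, 16.1% of those of tested genes and 8.86% of all. The YY1 motif AAGATGGCG was in 8.96%, 2.69% and 1.4% of these sets, and the ERRA motif TNAAGGTCA in 2.99%, 0.772% and 1.28%. The GC box GGGCGG was in 40.3% of member windows, against 59.6% in tested genes, and the TATA box TATAAA in 10.4%, against 8.16%. The median GC content was 58.7% in member windows and 60.3% in those of tested genes. NRF1 matches stood in 30.8% of the windows of members that fell, against 21.4% of the other members' windows, and ETS matches in 28.2%, against 21.4%. YY1 matches stood in 10.3%, against 7.14%, and ERRA matches in 5.13%, against 0%. The GC box stood in 33.3% of the windows of members that fell, against 50% of the others, and the TATA box in 15.4%, against 3.57%. These shares rest on 39 and 28 windows, and their differences were not tested. These are counts of letters and say nothing of binding.

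Complex I, NADH dehydrogenase, had 17 of 34 measured subunits lower with CLA at 24 h and 0 higher, with a median log2 change of -0.55. All 34 estimates were below 0, from -1.67 to -0.16. Those of Ndufa1 and Ndufb11 turned with 1 factor for all arrays, and that of Ndufa1 also with quantile normalization. That of Ndufa12 turned when its probe sets were averaged, which took in a dim probe set (mean 66.9) at 1.77. Its brighter probe sets were at -0.43, -0.41 and -0.46. Ndufb3, an accessory subunit of the membrane arm, changed most. Its scaled intensity at 4 h was 11076 and 14395 with CLA, against 17400.0 and 14818 with LA. It was 10716 and 9721 with CLA, against 14104 and 12256 with LA at 12 h, and 5669 and 5354 with CLA, against 17472 and 17626 with LA at 24 h. The CLA pools were below the LA pools at each time, furthest at 24 h, where Ndufb3 was 3.18-fold lower (log2 change -1.67 ± 0.17, SE, adjusted p = 0.000795, limma). At 4 and 12 h its changes of -0.35 and -0.36 did not pass (adjusted p = 0.797 and 0.318, limma).

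The catalytic core of complex I changed in part. Of 6 core subunits measured, Ndufs1, Ndufs7 and Ndufs3 were lower at 24 h. Ndufs1, which carries iron-sulfur clusters near the site of NADH oxidation, had 2796 and 2505 with CLA, against 5707 and 5673 with LA. It fell by 1.10 on the log2 scale (SE 0.15, adjusted p = 0.0021, limma). At 12 h the CLA pools lay above the LA pools, at 5648 and 4984 with CLA, against 4753 and 4785 with LA. Ndufs7, at 5012 and 6038 with CLA, against 9374 and 11557 with LA at 24 h, changed by -0.92 ± 0.18 (SE, adjusted p = 0.00882, limma). Ndufs3 changed by -0.74 (adjusted p = 0.0358, limma). Ndufv1, which binds the flavin that takes electrons from NADH, had 6732 and 6534 with CLA, against 7758 and 8832 with LA, and did not pass (adjusted p = 0.183, limma). Ndufv2 and Ndufs8, also of the core, had log2 changes of -0.52 and -0.48, and did not pass with the probe sets used. Probe sets nearly as bright passed when all kept probe sets were tested, at -0.97 for Ndufv2 and -0.85 for Ndufs8 (adjusted p = 0.00828 and 0.025, limma). The remaining probe sets of Ndufs8 were mixed, and that of Ndufv2 did not pass.

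Ndufs4, an accessory subunit needed for a stable complex I in mice, was 1.75-fold lower at 24 h, at 4109 and 3732 with CLA, against 6713 and 7004 with LA (adjusted p = 0.0051, limma). Ndufa6, an accessory subunit, had 3145 and 2985 with CLA, against 5448 and 6123 with LA (log2 change -0.91 ± 0.16, SE, adjusted p = 0.00566, limma). In both genes the pools of the diets did not overlap at 24 h. The smallest change was that of Ndufa1, a membrane-arm subunit, at 17273 and 18009 with CLA, against 18186 and 21321 with LA (log2 change -0.16, adjusted p = 0.528, limma). The remaining 13 that fell were Ndufs5, Ndufb2, Ndufv3, Ndufa3, Ndufa7, Ndufa9, Ndufb10, Ndufb8, Ndufa13, Ndufb7 and Ndufa4 beside Ndufs7 and Ndufs3, with log2 changes of -1.15 to -0.49.

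Ndufa4 carries a complex I name but is known as a subunit of complex IV. It had 6266 and 8099 with CLA, against 10123 and 15553 with LA at 24 h and passed by little (log2 change -0.82 ± 0.25, SE, adjusted p = 0.0499, limma). Ndufa4l2, its hypoxia-induced relative, stayed under 100 on all 4 arrays of 24 h, at 12.3 and 53.1 with CLA, against 43.4 and 86.5 with LA. It entered the test through 2 arrays, at 158 and 107, and no change is read from it. Cox4i2 and Cox6b2 also lay just inside the filter, with 2 highest arrays at 156 and 134 and at 136 and 108. Just outside it were Ndufb4, with 86.9 on its highest array, and Cox7b2, with 59.5.

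**Figure D3:**
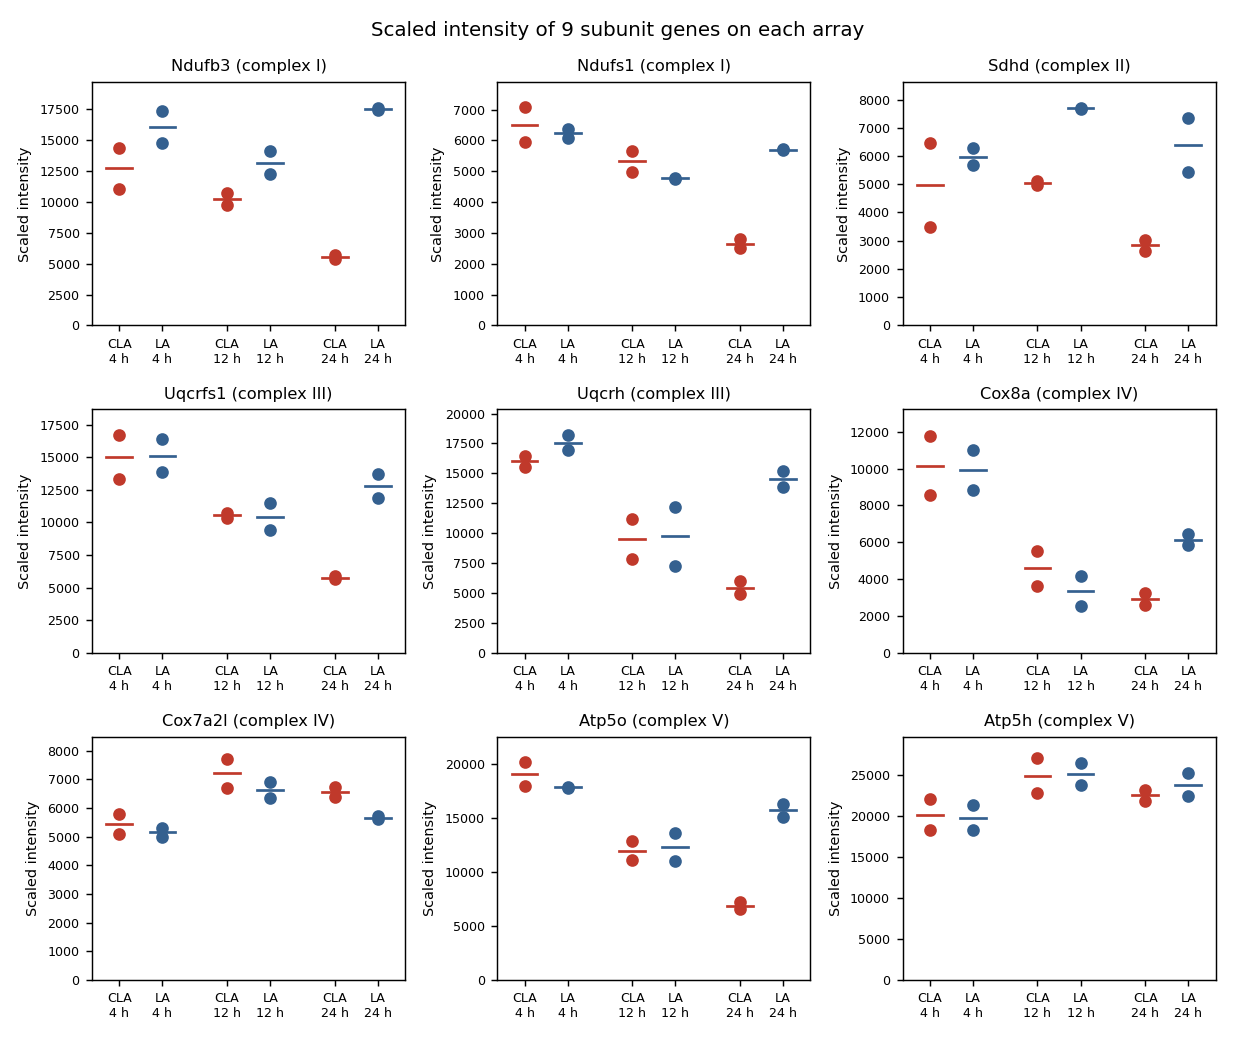
Scaled intensity of 9 subunits on each of the 12 arrays. Each panel is 1 gene with its own vertical axis in scaled intensity, from 0, points are single pools, lines the means of 2 pools, red CLA and blue LA. Ndufb3, Ndufs1, Sdhd, Uqcrfs1, Uqcrh, Cox8a and Atp5o were lower in the CLA pools of 24 h, and Cox7a2l and Atp5h did not pass.

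Complex II, succinate dehydrogenase, links the citric acid cycle to the chain and holds no subunit from mitochondrial DNA. All 4 of its subunits were lower with CLA at 24 h, with a median log2 change of -0.75. Sdha, the flavoprotein that oxidises succinate, had 8946 and 7964 with CLA, against 13009.8 and 13201 with LA (log2 change -0.63 ± 0.14, SE, adjusted p = 0.0148, limma). Sdhb, the iron-sulfur subunit, had 10836 and 10761 with CLA, against 17517 and 14801 with LA (log2 change -0.58 ± 0.14, SE, adjusted p = 0.021, limma). For both subunits the CLA pools lay below the LA pools.

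The membrane anchors of complex II, Sdhc and Sdhd, fell as well. Sdhc had 3185 and 2748 with CLA, against 5013 and 5910.4 with LA at 24 h (log2 change -0.88 ± 0.25, SE, adjusted p = 0.0421, limma). Sdhd had 2629 and 3037 with CLA, against 7341 and 5436 with LA, and was 2.23-fold lower (log2 change -1.16 ± 0.28, SE, adjusted p = 0.0219, limma). At 12 h Sdhd had 4983 and 5108 with CLA, against 7716 and 7658 with LA. The CLA pools were below the LA pools there too, but the change of -0.61 did not pass (adjusted p = 0.299, limma). At 4 h its CLA pools, at 3493 and 6459, enclosed the LA pools, at 5681 and 6272.

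Complex III, which passes electrons from ubiquinol to cytochrome c, had 6 of 8 subunits lower with CLA at 24 h and a median log2 change of -1.09. All 8 had both CLA pools below both LA pools. Uqcrfs1, the Rieske iron-sulfur protein of the catalytic core, had 5661 and 5851 with CLA, against 11896 and 13708 with LA at 24 h. It was 2.22-fold lower (log2 change -1.15 ± 0.18, SE, adjusted p = 0.00405, limma). At 12 h it had 10358 and 10710.3 with CLA, against 9384 and 11497 with LA, and the LA pools enclosed the CLA pools. Uqcrh, the hinge protein at the cytochrome c1 side, was 2.68-fold lower at 24 h, at 5962 and 4930.4 with CLA, against 13874 and 15222 with LA (log2 change -1.42 ± 0.27, SE, adjusted p = 0.00824, limma).

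The other complex III subunits were lower by less or with more spread. Uqcrq had 6287 and 6436 with CLA, against 10041 and 11179 with LA (log2 change -0.73, adjusted p = 0.0122, limma), and 1 of its other 2 probe sets, a dim one, had the opposite sign. Uqcr10 had 3913 and 4091 with CLA, against 8230.0 and 8931 with LA (log2 change -1.10, adjusted p = 0.0165, limma). Of the core proteins, Uqcrc1 changed by -1.21 (adjusted p = 0.0161, limma), and Uqcrc2, at -0.53, did not pass (adjusted p = 0.0621, limma). The other probe set of Uqcrc2 passed at -0.94 when all kept probe sets were tested (adjusted p = 0.0225, limma). Uqcr11 changed by -1.08 (adjusted p = 0.0158, limma). Uqcrb had 44048 and 45587 with CLA, against 58148 and 62768 with LA, and did not pass (log2 change -0.43, adjusted p = 0.0611, limma). The heme-bearing subunit cytochrome c1, Cyc1, which the symbols missed, was 1.79-fold lower, at 11756 and 9882 with CLA, against 18307 and 20473 with LA (adjusted p = 0.00906, limma).

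Complex IV, cytochrome c oxidase, reduces oxygen, and was the complex with the most varied members. At 24 h 5 of 14 subunits were lower with CLA and 0 higher, with a median log2 change of -0.25 that shrank to -0.02 with 1 factor for all arrays. Cox5b, a zinc-binding subunit, had 20636 and 20019 with CLA, against 29767 and 33420.0 with LA (log2 change -0.63 ± 0.13, SE, adjusted p = 0.0125, limma). Cox8a, the widely expressed form of subunit VIII, was 2.11-fold lower, at 3245 and 2574 with CLA, against 5826 and 6431 with LA (adjusted p = 0.0405, limma). Its CLA pools of 24 h lay between the LA pools of 12 h, at 4153 and 2528, and below the CLA pools of 12 h, at 5522 and 3642. Cox6c, Cox7a2 and Cox6b1 changed by -0.61, -0.57 and -0.43 (adjusted p = 0.0159, 0.0161 and 0.0409, limma).

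The widely expressed forms Cox4i1 and Cox6a1 did not pass. Cox4i1 had 23921 and 25127 with CLA, against 29426 and 32534 with LA (log2 change -0.34, adjusted p = 0.122, limma), with the CLA pools below the LA pools. Cox6a1 had a change of -0.27 (adjusted p = 0.251, limma). Cox7a2l, a factor that joins complexes III and IV into supercomplexes, stood above in the CLA pools at 24 h, at 6383 and 6747 with CLA, against 5709.8 and 5628 with LA. This change of 0.21 ± 0.14 did not pass (SE, adjusted p = 0.341, limma), and its sign turned when the gene's 3 probe sets were averaged.

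Forms of complex IV known from heart, muscle or testis were among the dimmer members. Cox6a2, the heart and muscle form, had 181 and 157 with CLA, against 99.7 and 76.1 with LA at 24 h and 250.2 and 179.5 with CLA, against 165 and 89.5 with LA at 12 h. The testis form Cox8c had 377 and 486 with CLA, against 302 and 354 with LA at 24 h. In both the CLA pools lay above the LA pools, but neither passed (adjusted p = 0.369 and 0.313, limma). Cox4i2, the form linked to low oxygen, had 94.2 and 89 with CLA, against 42.6 and 134 with LA, and Cox6b2 16.6 and 85.4 with CLA, against 0.728 and 31 with LA. These values of Cox4i2 and Cox6b2 lay near or under 100 and overlapped. Cox7c, which is not listed here as a tissue form, had 139 and 201 with CLA, against 156 and 79.5 with LA, which overlapped. Its only kept probe set averaged 120 over the arrays, so no level or change of the gene is read from it.

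Cox8b and Cox7a1, the forms typical of brown fat and muscle that the choice of members left out, were lower at 24 h. Cox8b had 1230.2 and 1235 with CLA, against 3671 and 5522 with LA, and was 3.62-fold lower (adjusted p = 0.00412, limma), and Cox7a1 had 559.5 and 461 with CLA, against 1128 and 937 with LA (log2 change -0.99, adjusted p = 0.00735, limma). The estimate of Cox8b was below those of all 14 complex IV members, and this difference was not tested.

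Complex V had 11 of 17 subunits lower with CLA at 24 h and 0 higher, with a median log2 change of -0.63. All 17 estimates were below 0, from -1.19 to -0.08, although that of Atp5h turned with 1 factor, quantile normalization or without LA replicate 2 of 24 h. Atp5o, which joins the catalytic head to the peripheral stalk, had 7222 and 6544 with CLA, against 15144 and 16304 with LA. It was 2.28-fold lower (log2 change -1.19 ± 0.16, SE, adjusted p = 0.00226, limma). At 12 h it had 12855 and 11076 with CLA, against 13650.1 and 11017 with LA, and at 4 h 20199 and 17980.3 with CLA, against 17929 and 17778 with LA, where the diets differed by little.

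The catalytic head, F1, had 4 of 5 measured subunits lower. Atp5a1, its alpha subunit, had 8252 and 7062 with CLA, against 16508 and 16663 with LA (log2 change -1.12 ± 0.20, SE, adjusted p = 0.00666, limma). Atp5b, the beta subunit that makes ATP, had 18454 and 17079 with CLA, against 27476 and 27658 with LA (log2 change -0.63 ± 0.18, SE, adjusted p = 0.0379, limma). Atp5c1 and Atp5e, of the central stalk, changed by -0.63 and -1.12 (adjusted p = 0.0393 and 0.0235, limma). Atp5d, also of the stalk, had 11131 and 12143 with CLA, against 12813 and 16161 with LA, and did not pass (log2 change -0.31, adjusted p = 0.259, limma).

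The rotating c ring is made from a single protein encoded by Atp5g1, Atp5g2 and Atp5g3. Atp5g3 was 1.97-fold lower, at 17907 and 18128 with CLA, against 34391 and 36561 with LA (log2 change -0.98 ± 0.14, SE, adjusted p = 0.00318, limma). Atp5g2 had 3924 and 3444 with CLA, against 5989 and 7213 with LA (log2 change -0.84, adjusted p = 0.016, limma). Atp5g1 had 1276 and 1073 with CLA, against 1626 and 1746 with LA, with the pools apart in the same order, and did not pass (log2 change -0.52, adjusted p = 0.124, limma).

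Among the small membrane subunits of complex V, Atp5mpl was 2.21-fold lower, at 4864 and 4337 with CLA, against 9565 and 10805 with LA (log2 change -1.14 ± 0.19, SE, adjusted p = 0.00469, limma). Atp5k, Atp5md and Atp5j2 also fell, with log2 changes of -0.92 to -0.58. Of the 6 subunits of complex V that did not pass, Atp5h, of the peripheral stalk, was nearest to 0. It had 21894 and 23162 with CLA, against 22493 and 25197 with LA, which overlapped, and a log2 change of -0.08 ± 0.17 (SE, adjusted p = 0.778, limma). Atp5l, Atp5j and Atp5pb, at log2 changes of -0.63, -0.53 and -0.44, did not pass either (adjusted p = 0.0713, 0.0759 and 0.0702, limma). When all kept probe sets were tested, the other probe set of Atp5pb passed at -1.10 (adjusted p = 0.00532, limma). The other probe set of Atp5h, at -0.58, did not pass (adjusted p = 0.0989, limma). Atpif1, the inhibitor of the reverse reaction and no subunit, had a log2 change of 0.19 ± 0.17 (SE, adjusted p = 0.492, limma).

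The effect of the diet was next compared between times. The effect at 24 h was lower than that at 12 h for 5 members, Ndufs1, Ndufb3, Ndufa6, Atp5a1 and Atp5o, and higher for 0 (0.998% of all genes were lower and 1.3% higher). Ndufs1 had the smallest p, with a difference of -1.25 ± 0.21 (SE, adjusted p = 0.0303, limma). The effect at 24 h was lower than that at 4 h for 8 members and higher for 0 (3.52% of all genes were lower and 3.4% higher). Atp5o had the smallest p, with a difference of -1.28 ± 0.23 (SE, adjusted p = 0.0206, limma). The comparisons share the arrays of 24 h. Between 12 and 4 h, limma passed 0 members (0.00792% of all genes as lower, 0.0158% as higher), with 0 at an unadjusted p under 0.05. The 5 calls against 12 h were 0 without any single array of 12 or 24 h or of the LA pools of 4 h, and 9 when either CLA pool of 4 h was left out. The 8 calls against 4 h were 0 without an LA pool of 4 h, a CLA pool of 24 h or LA replicate 2 of 24 h, and 1 without LA replicate 1 of 24 h. They were 4 without CLA replicate 1 of 4 h or any 12 h array, and 19 without CLA replicate 2 of 4 h.

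Averaged over the times, 11 members were lower with CLA and 0 higher, where 7.73% of all genes were lower and 7.42% higher. Of these, 4 were of complex I (Ndufb3, Ndufb7, Ndufs4, Ndufs7), 1 each of complexes II (Sdhd) and III (Uqcrfs1), and 5 of complex V (Atp5g3, Atp5k, Atp5md, Atp5mpl, Atp5o). The average change of Ndufb3 was -0.79 ± 0.10 (SE, adjusted p = 0.0023, limma) and that of Sdhd was -0.70 ± 0.16 (SE, adjusted p = 0.0236, limma). This count was 12 and 16 without CLA replicates 1 and 2 of 4 h. It dropped to 1 without an LA pool of 4 h, LA replicate 1 of 12 h or CLA replicate 1 of 24 h, and 2 without CLA replicate 2 of 12 h or 24 h or LA replicate 2 of 24 h. It was 4 without CLA replicate 1 of 12 h, 5 without LA replicate 2 of 12 h and 6 without LA replicate 1 of 24 h.

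Some of the proteins that feed, build or surround the chain were lower at 24 h, and the share differed between the lists. Of 9 electron carriers and donors, 7 were lower and 0 higher, where 11% of all genes were lower and 10.7% higher. Their median log2 change was -0.61. Cytochrome c, Cycs, had 26501 and 27212 with CLA, against 42522 and 36824 with LA (log2 change -0.56, adjusted p = 0.0376, limma). Etfb, which hands over electrons from fatty acid oxidation, was 2.24-fold lower, at 5462 and 5228 with CLA, against 11372 and 12643 with LA (adjusted p = 0.00269, limma). Ndufab1, the acyl carrier protein in complex I, changed by -0.61 (adjusted p = 0.0206, limma). Gpd2, the glycerol phosphate shuttle enzyme, was lower at 24 h (log2 change -1.70, adjusted p = 0.00418) and at 12 h (log2 change -1.27, adjusted p = 0.0397), both in limma.

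Of 44 assembly factors, 19 were lower and 0 higher at 24 h, where 11% of all genes were lower and 10.7% higher. Their median log2 change was -0.53. Sdhaf4, which helps mature Sdha, was 2.76-fold lower, at 1717 and 1545 with CLA, against 4764 and 4282 with LA (adjusted p = 0.00159, limma). Pet100 and Cox20, of complex IV, changed by -1.30 and -0.79 (adjusted p = 0.00503 and 0.00785, limma). Acad9, Ndufaf5 and Nubpl, of complex I, changed by -1.28, -1.05 and -0.78 (adjusted p = 0.00604, 0.0174 and 0.0129, limma). Cox17, a copper chaperone, changed by -0.66 (adjusted p = 0.0171, limma). Cox11, another factor of complex IV, was the 1 assembly factor that passed at 12 h, with a log2 change of -0.93 (adjusted p = 0.038, limma). This was 2.27% of the list, where 2.37% of all genes passed as lower at 12 h. The change of Cox11 at 24 h, -0.40, did not pass.

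The neighbouring lists moved to different extents at 24 h, when 11% of all genes passed as lower and 10.7% as higher. Among genes with a mean log2 level of at least 12, 24.2% passed as lower and 10.2% as higher. Of 12 citric acid cycle genes 4 were lower, Idh3a, Cs, Suclg1 and Fh1, with a list median of -0.53. Of 76 mitochondrial ribosomal proteins 19 were lower, with a median of -0.40. Of 39 mitochondrial carriers 9 were lower and 4 higher, with a median of -0.24. Of 40 cytosolic ribosomal proteins 0 were lower in limma and 1 was higher, with a median of 0.00, and 4 had an unadjusted p under 0.05. Differences between these lists and the subunits were not tested.

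**Figure D4:**
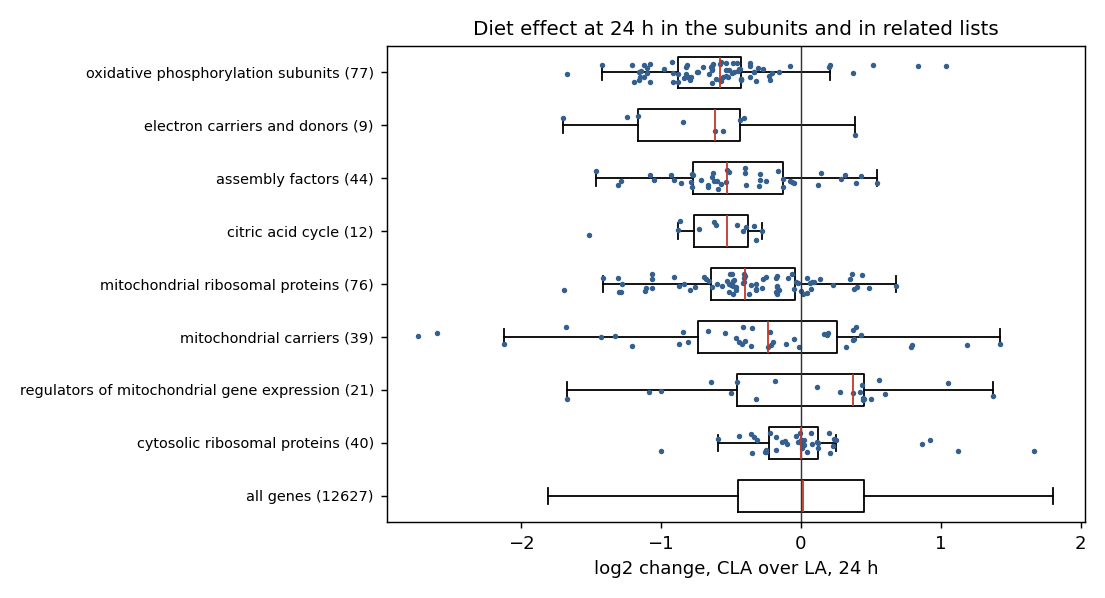
Log2 change of CLA over LA at 24 h (horizontal axis) in the 77 subunits and in 7 related lists, with all 12627 genes at the bottom. Points are genes, boxes the quartiles with the median in red, and whiskers reach 1.5 times the box's width at most. The subunits' box lies wholly below 0, and the box of the cytosolic ribosomal proteins encloses 0.

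Of 21 regulators of mitochondrial gene expression, 4 were lower and 1 higher at 24 h, where 11% of all genes were lower and 10.7% higher. Their median log2 change was 0.37. Ppargc1a, the coactivator that drives mitochondrial biogenesis, had 65.1 and 44.2 with CLA, against 228 and 188 with LA (adjusted p = 0.00153, limma). Both CLA pools lay under 100, so no fold is given. Ppargc1b, its relative, had 381 and 282 with CLA, against 618 and 824 with LA (log2 change -1.09, adjusted p = 0.0155, limma), and was already lower at 12 h, at 219 and 326 with CLA, against 683 and 771 with LA (log2 change -1.39, adjusted p = 0.0201, limma).

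Esrra, the nuclear receptor of the ERRA motif, had 445 and 352 with CLA, against 708 and 922 with LA at 24 h (log2 change -1.002, adjusted p = 0.019, limma). That motif stood in 2.99% of member windows, and a link between Esrra and the subunits was not tested. Polrmt, the mitochondrial RNA polymerase, changed by -0.64 (adjusted p = 0.0474, limma). Pprc1, the third coactivator of the family, was higher, at 1078 and 953 with CLA, against 386 and 376 with LA (log2 change 1.37, adjusted p = 0.00526, limma). Nrf1 had 279 and 304 with CLA, against 155 and 113 with LA, Gabpa had 1183 and 1076 with CLA, against 873 and 862 with LA, and Tfam had 1194 and 1335 with CLA, against 917 and 928 with LA. All 3 lay higher in the CLA pools but did not pass (adjusted p = 0.137, 0.17 and 0.125, limma).

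Markers of cell types moved beside the subunits at 24 h, when 11% of all genes passed as lower and 10.7% as higher. Of 8 adipocyte markers 6 were lower and 0 higher, with a summed intensity of 170500 and 163300 with CLA, against 244400 and 270700 with LA. Of 7 brown fat markers 4 were lower, among them Cox8b and Cox7a1, with sums of 2833 and 2795 with CLA, against 7839 and 9794 with LA. Ucp1, Dio2 and Zic1, which define brown fat, were under 100 in both groups of 24 h. Of 8 macrophage markers 4 were higher, with sums of 33700 and 28250 with CLA, against 22400 and 19450 with LA. Of 4 neutrophil markers 3 were called higher, S100a9, S100a8 and Csf3r, with sums of 3539 and 2637 with CLA, against 784.7 and 699.9 with LA. Csf3r reached 100 only in the CLA pools of 24 h, at 120 and 151. It entered the test through them, so its call is not read as a change. Camp, Cxcr2 and Ltf were under 100 in both groups of 24 h. The part of these cell types in the result was not tested.

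Other tissues' markers were mixed at 24 h, beside the same shares of all genes. Of 8 skeletal muscle markers 0 passed at 24 h in limma, 0 with an unadjusted p under 0.05, with sums of 1501 and 1346 with CLA, against 941.2 and 2314 with LA. Of 6 liver markers 3 were lower, with sums of 2527 and 4176 with CLA, against 13870 and 9097 with LA. Of 2 kidney and adrenal markers tested, Star was higher. Slc12a1, Slc34a1 and Umod, which define kidney, and Cyp11a1 and Cyp11b1, of the adrenal, were under 100 in both groups. Of 6 endothelial markers 1 was lower and 1 higher. Of 5 mesothelial and 2 red blood cell markers 0 passed in limma, with 0 at an unadjusted p under 0.05.

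In the authors' deposited table of 24 h, made from the same arrays with an error model not stated in the sources used here, 60 members passed as lower and 0 as higher after Benjamini-Hochberg adjustment. There, 15.7% of all genes passed as lower and 15.9% as higher. The 60 hold all 43 members that passed in limma. They comprise 28 of complex I, 4 of complex II, 8 of complex III, 6 of complex IV and 14 of complex V.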

How the data were processed

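Intensity values for 45101 probe sets were deposited by the authors on a linear scale and, from the values, were not scaled to a common mean. The method that summarised the probes is not given in the sources used here. Per the file headers, 3 deposited Rosetta tables give a ratio, a log10 ratio and a p-value per probe set. Their direction, CLA over LA, was taken from the values, since each correlated with the arrays of its own time (r = 0.877, 0.964 and 0.977 over 10270 probe sets) and at most at 0.536 with others.

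Each array was scaled to a mean of 500 with 2% trimmed at each end, leaving out 64 control probe sets. Log2 was taken of scaled values plus 16, with negative ones first set to 0 after they were seen. Probe sets reaching 100 on 2 of 12 arrays were kept (26016). Of all probe sets, 34958 had 1 gene symbol and 932 several. Each gene took its probe set with the highest mean. Of the members, 44 had over 1 kept probe set, and 3 (Cox7a2l, Ndufa12, Uqcrq) had one of the other sign at 24 h. Some members that did not pass had another probe set that passed when all kept probe sets were tested. Ndufb5, Ndufb6, Ndufb9 and Ndufc1 were among them.

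One limma fit (version 3.58.1, R 4.3.3) held all 6 groups, with 6 residual and 2.15 prior degrees of freedom, without a replicate block. Contrasts were CLA over LA at each time, averaged, and between times, with two-sided p-values adjusted by Benjamini-Hochberg over 12627 genes. Deviations of equally numbered replicates correlated at -0.092 to 0.1 over 15 pairs of groups, so the numbers were not taken as pairs. The fit was tested on simulated data. Figures were drawn with matplotlib 3.10.9 in Python 3.11.15.

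The members and lists were chosen with earlier results of these data known. Genes were named by rule: the 3 smallest p-values per complex among those that passed at 24 h, the highest and lowest change per complex at 12 and 24 h, all Sdh subunits, isoforms, missed subunits, and up to 12 regulators or assembly factors. Others named, among them Ndufa6, Ndufs7, Atp5a1 and the core subunits, were chosen after their values were seen. Alternatives were other scalings, offsets, filters, probe set rules, moderation, a replicate block, fewer groups and each array left out.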

Additional observations from a re-analysis of the deposited data

Results flagged for a closer look

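The diet effect of 8 subunits and 4 related genes differed between times in limma's test of the difference itself, adjusted over all genes. For the effect at 24 h minus that at 12 h, the log2 difference was -1.39 for Atp5a1 (adjusted p = 0.0493), -1.15 for Atp5o (0.0478), -1.09 for Ndufa6 (0.0493), -1.30 for Ndufb3 (0.0413) and -1.25 for Ndufs1 (0.0303). At 24 h the estimates of Atp5a1, Ndufa6 and Ndufs1 were below 0, and at 12 h they were 0.27, 0.18 and 0.15.

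For the effect at 24 h minus that at 4 h, the log2 difference in limma was -1.17 for Atp5a1 (adjusted p = 0.0481), -1.04 for Atp5g3 (0.0266), -1.28 for Atp5o (0.0206), -0.92 for Ndufa6 (0.0467) and -1.32 for Ndufb3 (0.0230). It was -1.16 for Ndufs1 (0.0209), -0.82 for Ndufs4 (0.0416) and -1.13 for Uqcrfs1 (0.0387). Outside the subunits it was -1.185 for Sdhaf4 (0.0345), -1.43 for Acad9 (0.0380) and 1.41 for Pprc1 (0.0419). Ppargc1a passed this test too, at -1.32 in the fit (0.0362), but its CLA pools of 24 h lay under 100, so no size is read from that value.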

How the results depend on the processing

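At 24 h the fitted changes stayed mostly below 0 under every alternative, for at least 67 of 77 members (70 of 72 where all 12 arrays had to reach 100, 72 of 79 without a filter), and 0 members passed as higher. The count of 43 was 9 with 1 factor for all arrays, 15 with the 2 groups of 24 h alone, 9 to 50 with 1 array left out, and 30 to 60 under the other settings. At 12 h the count of 0 was 7 in the authors' deposited table. Averaged over times, the count of 11 was 1 with 1 factor, 19 with all 12 arrays at 100, 6 with all probe sets tested, 31 with a trended and robust prior, and 1 to 16 with 1 array left out. The 5 differences between 24 and 12 h were 0 with 1 factor or all probe sets, 1 with quantile normalization or no filter, 2 with averaged probe sets, 10 with an offset of 64, 22 with all 12 arrays at 100, 31 with the trended and robust prior, and 0 to 9 with 1 array left out. The 8 differences between 24 and 4 h were 0 with 1 factor, 5 with quantile normalization, 4 with all probe sets, 20 with all 12 arrays at 100, 38 with the trended and robust prior, and 0 to 19 with 1 array left out.

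Replicate numbers were not taken as pairs of pools, but equally numbered pools were alike in RNA integrity. In every group the 3' to 5' ratio of Actb was higher in replicate 2 than in replicate 1. At 12 h it was 6.10 against 4.24 with CLA and 6.41 against 3.80 with LA. Whether the numbers mark a shared step of processing was not tested. With a replicate block, 46 members passed at 24 h, 13 on average, 3 between 24 and 12 h and 7 between 24 and 4 h.

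With 1 factor, the complex medians I to V were -0.22, -0.16, -0.21, -0.062 and -0.13 at 4 h. At 12 h complexes I, II, IV and V had -0.27, -0.15, -0.11 and -0.15. At 24 h complexes I to V had -0.32, -0.53, -0.87, -0.024 and -0.41. With quantile normalization, complex IV had -0.023 at 4 h, and complexes I, II, IV and V had -0.42, -0.67, -0.059 and -0.50 at 24 h. Complex I at 24 h was -0.61 with the 75th percentile and -0.69 with averaged probe sets, which gave it -0.062 at 12 h and complex IV -0.34 at 24 h. Complex IV was -0.38 with all 12 arrays at 100. With 1 array left out, complex I ranged over -0.13 to -0.020 at 4 h, and complexes III, IV and V over 0.052 to 0.28, -0.079 to 0.069 and -0.11 to 0.068 at 12 h. At 24 h complexes I, II, IV and V ranged over -0.65 to -0.49, -0.85 to -0.67, -0.41 to -0.20 and -0.76 to -0.58.

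Of 1160 comparisons for 53 named genes, 7 changed sign and 148 lost the call. Atp5h was 0.14 with 1 factor, 0.12 with quantile normalization and 0.0017 without LA replicate 2 of 24 h. Ndufa1 was 0.063 with 1 factor and 0.015 with quantile normalization. Cox7a2l was -0.010 with averaged probe sets, and Cox4i2, at 0.20 with all arrays, was -0.48 without LA replicate 1 of 24 h and 0.88 without LA replicate 2. The cause of these shifts was not tested. With 2 pools a group, precision is limited, and intensities near 100 carry no reading of change.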

Other observations

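The transporters that link the subunits to the cytosol moved unevenly at 24 h. The ADP/ATP carriers, which exchange the product of complex V, fell: Slc25a4 had 5987 and 6334 with CLA, against 11453 and 10619.6 with LA (log2 change -0.84, adjusted p = 0.0181, limma) and Slc25a5 had 14123 and 14567 with CLA, against 18834 and 19617 with LA (log2 change -0.42, adjusted p = 0.0427, limma). Slc25a1, the citrate carrier used in fatty acid synthesis, had 5777 and 4955 with CLA, against 21264 and 25498 with LA (log2 change -2.12, adjusted p = 0.000812, limma). Slc25a10, the dicarboxylate carrier, changed by -2.73 (adjusted p = 0.000412, limma). Of 39 carriers tested, the 4 that were higher were Slc25a24, Slc25a33, Slc25a45 and Slc25a30, where 10.7% of all genes were higher. Slc25a24, which brings adenine nucleotides into the matrix, had 3415 and 3375 with CLA, against 1440.3 and 1093 with LA (log2 change 1.42, adjusted p = 0.00389, limma).

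In the citric acid cycle, Idh3a, a subunit of the NAD-linked isocitrate dehydrogenase, had 7323 and 6919 with CLA, against 22688 and 18214 with LA (log2 change -1.51, adjusted p = 0.00114, limma). Citrate synthase, Cs, had 9865 and 10957 with CLA, against 18759 and 19482 with LA (log2 change -0.88, adjusted p = 0.00544, limma). In both the pools of the diets did not overlap.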
